A study of Mus musculus with 4 samples.

Results

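The genes described are 10 heat shock genes: the chaperones Hspa1a, Hspa1b, Hspa8, Hsph1, Dnajb1, Hsp90aa1, Hsp90ab1, Hspd1 and Hspe1, and Hsf1, the transcription factor that switches many of them on. They were picked by gene symbol, and all 10 were found among the 22520 genes of the deposited tables. The tables came from RNA-seq of bone marrow cells left after magnetic removal of cells that carry markers of mature blood lineages. Libraries came from 2 Cyba knockout mice and 2 wild type mice, all of strain C57BL/6. Cyba encodes p22phox, a membrane subunit that several NADPH oxidases need to make superoxide. The ages of the mice are not given in the sources used here, and the depleted fraction is a mixture of stem, progenitor and remaining maturing cells.

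Heat shock proteins bind unfolded proteins and help them to fold, to be taken apart from aggregates or to be degraded. In unstressed cells HSF1 is held inactive, in part by HSP70 and HSP90 themselves. After heat, oxidants or other protein damage it forms trimers, binds heat shock elements in the DNA and raises the inducible chaperones within minutes. Hspa8, Hsp90ab1 and the mitochondrial pair Hspd1 and Hspe1 are also made at high levels without stress, whereas Hspa1a and Hspa1b are the most strictly inducible HSP70 genes of the mouse.

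The results turn on Hspa1a and Hspa1b, so the sequence before their start sites is shown first. Hspa1a lies at chr17:34969190-34972156 and Hspa1b at chr17:34956436-34959238 (GRCm38), both on the minus strand, each with 1 exon and 9951 bases apart. The 250 bases upstream of the RefSeq start sites (GRCm38.p6, minus strand) were chr17:34972157-34972406 for Hspa1a and chr17:34959239-34959488 for Hspa1b. The capitals mark the only exact match to a heat shock element of 2 units, the letters GAANNTTC or TTCNNGAA, read on both strands.
Hspa1a: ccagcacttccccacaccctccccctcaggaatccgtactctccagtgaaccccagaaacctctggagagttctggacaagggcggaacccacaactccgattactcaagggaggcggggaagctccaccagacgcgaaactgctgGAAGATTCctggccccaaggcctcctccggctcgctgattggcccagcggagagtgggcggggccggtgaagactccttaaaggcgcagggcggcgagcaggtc
Hspa1b: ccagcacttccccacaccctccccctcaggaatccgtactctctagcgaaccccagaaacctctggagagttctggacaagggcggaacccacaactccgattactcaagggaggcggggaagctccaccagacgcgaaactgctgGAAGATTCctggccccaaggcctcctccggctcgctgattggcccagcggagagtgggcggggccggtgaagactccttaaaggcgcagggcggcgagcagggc
The stretches were the same at 247 of 250 bases and differed at 3, with the match at -104 to -97 from the start site in both. Over the transcripts, 99.4% of the aligned coding bases were identical. Of the 31-base words in the Hspa1a transcript, 63.8% also occurred in Hspa1b, and of those in Hspa1b 67.5% occurred in Hspa1a. Reads from the coding parts can therefore be split between the pair by the counting method, and the sum of both is given beside the single values.

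A longer element of 3 units, either TTC, GAA and TTC or GAA, TTC and GAA with 2 free bases between units, was searched for on both strands in windows from 250 bases before to 50 bases after each start site. Windows were at hand for 6 of the 10 genes, and not for Hspa8, Hsp90aa1, Hsp90ab1 and Hsf1. The longer element was found for 3 of the 6 genes (Hsph1, Hspd1 and Hspe1), against 0.662% of the 27025 genes with a window. Only exact matches were counted for either element. Stretches that differ from an element at any fixed base, in Hspa1a and Hspa1b as in the other genes, were not searched for. The shorter element, which every match of the longer one contains, was found for 5 of the 6 genes, all but Dnajb1, against 17.0% of genes. In Hsph1 the longer match, TTCTGGAAAGTTC, lay after the start site, from 36 to 48 bases past the start base in one window. Hspd1 and Hspe1 sit head to head on chromosome 1 and share 1 stretch of 18 bases, chr1:55088059-55088076, in which 2 matches of the longer element overlap. The other window of Hspd1, for another start site, held no match of either element. The 18 bases are shown in capitals as each gene's own strand reads them. They lay at -144 to -127 in the window of Hspd1 that held them and at -89 to -72 in that of Hspe1.
Hspd1: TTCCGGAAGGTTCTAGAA
Hspe1: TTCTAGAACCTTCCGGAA
A match describes these letters only and was not tested against any measurement of binding.

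The libraries held 23123539 and 22866680 reads for Cyba knockout replicates 1 and 2, against 23686214 and 22400419 reads for wild type replicates 1 and 2. Cyba itself had 28 and 32 reads in the knockout libraries and 1347 and 875 reads in the wild type libraries. Each heat shock gene had at least 173 reads in every library at the readings used, so all 10 passed the expression filter in both genotypes. Summed erythroid markers (8 genes, led by Car2) stood at 1005 and 2808 CPM (reads per 1000000, with library sizes scaled by TMM) in knockout libraries 1 and 2, against 2037 and 4592 CPM in wild type libraries 1 and 2. Summed neutrophil markers (8 genes, led by S100a9) stood at 991 and 4136 CPM in the knockout, against 406 and 1144 CPM in wild type. Markers of granulocyte-monocyte progenitors (5 genes, led by Mpo) reached 15677 and 10314 CPM in the knockout, against 11336 and 5529 CPM in wild type. None of the 60 markers over 11 cell type lists was at 0 in all 4 libraries, and the stem cell factor receptor Kit was at 221 and 290 CPM in the knockout and at 266 and 301 CPM in wild type. In such bulk samples, fewer cells of a type and less RNA per cell cannot be told apart.

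Between the genotypes, none of the 10 genes passed the test (edgeR quasi-likelihood, adjusted p at most 0.05), and neither did any other of the 13580 genes tested, so 0.00% were called in each direction. By DESeq2 none of the 10 passed either, while 0.236% of all genes did. Cyba itself, at a log2 fold change of -5.19, was not called by edgeR (quasi-likelihood adjusted p = 0.326). DESeq2 did call it (DESeq2 adjusted p = 1.57e-43). A missed call in the edgeR test therefore does not show that a gene was unchanged. At an unadjusted edgeR p under 0.05 stood 2 of the 10, Hspa1a and Hspa1b, both higher in the knockout, a direction in which 2.78% of all genes met that limit (3.20% in either direction). In fold change 3 of the 10 were higher and 7 lower in the knockout, against 49.0% and 51.0% of all genes, with a median log2 fold change of -0.09 (all genes: -0.0066). That split rested on single libraries: it was 2 higher and 8 lower without knockout replicate 1 or without wild type replicate 2, and 6 higher and 4 lower without knockout replicate 2 or without wild type replicate 1. The lower knockout library exceeded the higher wild type one for 2 of the 10 (17.6% of all genes), and for 3 of the 10 (16.1% of all genes) the order was the opposite, with no overlap. The 10 genes together took 1.11% and 0.801% of the reads in the knockout libraries and 1.01% and 1.03% in the wild type libraries.

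**Figure D1:**
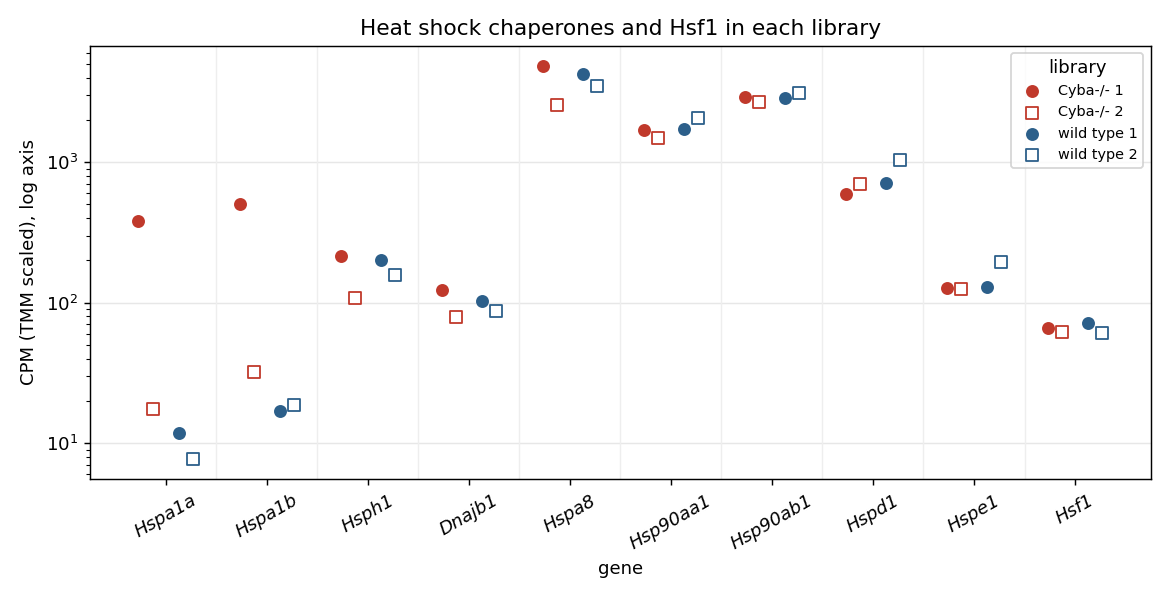
CPM (TMM scaled, log axis) of the 10 genes in each of the 4 libraries, with Cyba-/- in red and wild type in blue, filled circles for replicate 1 and open squares for replicate 2. Hspa1a and Hspa1b stand at 383 and 502 CPM in Cyba-/- replicate 1 and at most at 32.1 CPM in the other 3 libraries, while each of the other 8 genes differs by at most 1.98-fold between any 2 libraries.

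The widest spread was that of the inducible HSP70 genes, and it came from 1 knockout mouse. Hspa1b had 502 and 32.1 CPM in knockout replicates 1 and 2, against 16.9 and 18.9 CPM in wild type replicates 1 and 2. Its reads numbered 11265 and 751 in the knockout and 400 and 423 in wild type. Knockout replicate 1 was thus 15.6-fold above knockout replicate 2, 29.8-fold above wild type replicate 1 and 26.6-fold above wild type replicate 2, and knockout replicate 2 also lay above both wild type libraries. The knockout mean was 267 ± 332 CPM, against 17.9 ± 1.42 CPM in wild type (SD, n = 2 each). The log2 fold change was 3.90 (SE 1.34; edgeR quasi-likelihood adjusted p = 0.838).

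Hspa1a, which encodes a nearly identical protein, had 383 and 17.6 CPM in the knockout, against 11.8 and 7.72 CPM in wild type. These stand for 8611 and 413 reads in the knockout and 279 and 173 reads in wild type. Both knockout libraries were again above both wild type libraries, with replicate 1 far above the rest. The log2 fold change was 4.36 (SE 1.52; edgeR quasi-likelihood adjusted p = 0.838). Of the bases in the exon of Hspa1a, 19.0% are shared with Gm20481 on the opposite strand, and without a stated strand setting reads from both strands cannot be told apart.

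The wild type values of Hspa1a carry a further limit. Decimal points had been lost from many numbers in the deposited tables, and those of Hspa1a in all 4 lanes of both wild type libraries could be read at either of 2 powers of 10. The reading used gave 0.454% and 0.465% of the weight to another power of 10 in wild type replicates 1 and 2. These weights rest in part on a loose tie between libraries, by which the readings of one library inform those of the others. With the tie, the expected errors of the reads in wild type replicates 1 and 2 were 4.08% and 4.19%. Without it they were 14.71% and 9.24%, above the limit set for use, and Hspa1a was left out. At the other reading the knockout libraries keep 383 and 17.6 CPM and the wild type libraries have 118 and 77.2 CPM. The log2 fold change is then 1.04 (edgeR quasi-likelihood adjusted p = 0.85), and knockout replicate 2 falls below both wild type libraries. The ratio of Hspa1a to Hspa1b reads was 0.764 and 0.55 in the knockout and 0.698 and 0.409 in wild type at the reading used. At the other reading it was 0.764 and 0.55 in the knockout and 6.96 and 4.10 in wild type. For Hspa1b in all 4 libraries and Hspa1a in both knockout libraries the weight on another power of 10 was 0.0%.

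**Figure D2:**
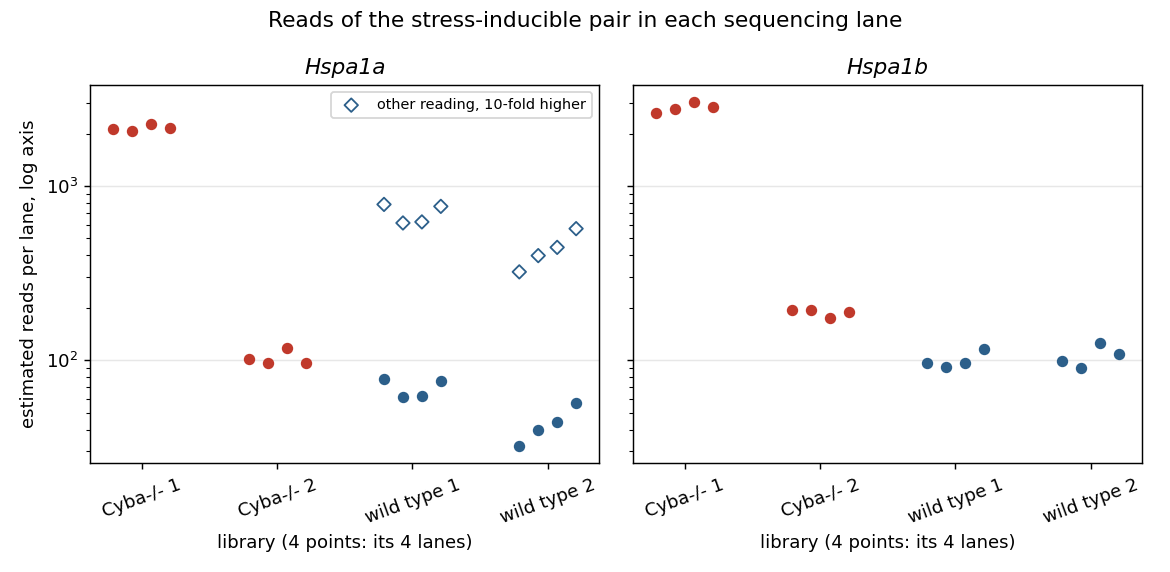
Estimated reads per sequencing lane (log axis) of Hspa1a and Hspa1b, with 4 lanes per library, Cyba-/- in red and wild type in blue. In both genes every lane of Cyba-/- replicate 1 lies above every lane of the other libraries, and open diamonds give the 10-fold higher reading of wild type Hspa1a, at 2785 and 1734 reads per library in place of 279 and 173.

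Summed, Hspa1a and Hspa1b reached 885 and 49.7 CPM in knockout replicates 1 and 2, against 28.6 and 26.6 CPM in wild type replicates 1 and 2. The log2 fold change of the sum was 4.08 (edgeR quasi-likelihood adjusted p = 0.839). Without knockout replicate 1 the log2 fold change was 0.87 for Hspa1a and 0.86 for Hspa1b, each with an edgeR adjusted p of 1.00. Without knockout replicate 2 the values were 5.30 and 4.81, and both genes passed the test (adjusted p = 0.0484 for Hspa1a and 0.0420 for Hspa1b). In these fits the lone knockout library is assumed to vary like the wild type pair.

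How far knockout replicate 1 stood apart in other genes was looked up after these values had been seen. It lay at least 10-fold above each of the other 3 libraries for 5 of the 13580 genes (0.0368%). Hspa1a and Hspa1b were 2 of these, at 21.6-fold and 15.6-fold over the highest other library. The others were the immunoglobulin variable segments Ighv5-12 and Igkv5-37 and the ribosomal pseudogene Rpl30-ps9. Of the genes around the pair on chromosome 17, the 6 looked at were Ehmt2, Slc44a4, Neu1, Lsm2, Vars and Vwa7. In knockout replicate 1 they were at 0.502-fold to 1.53-fold of the highest other library, with a small constant added to both values. Slc44a4 and Vwa7 were near the floor, at most at 1.69 CPM in any library. Without them the range was 0.759-fold to 1.53-fold. Gm20481 was not analysed here. Of the 11 marker lists, 6 had their highest sum in knockout replicate 1. They were those of granulocyte-monocyte progenitors, monocytes, eosinophils, basophils with mast cells, T cells and natural killer cells. The eosinophil sum (2 genes, led by Prg2) was 1901 and 526 CPM in the knockout, against 630 and 350 CPM in wild type. The sum for basophils and mast cells (4 genes, led by Prss34) was 1732 and 723 CPM in the knockout, against 1313 and 454 CPM in wild type. The part of these cell types in the result was not tested.

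Hspa8, the constitutive HSP70 that folds new proteins and strips clathrin from vesicles, was the most abundant of the 10. Per transcript length it stood at 4480 and 2610 TPM (transcripts per 1000000) in the knockout and at 4473 and 3679 TPM in wild type. In CPM it had 4862 and 2561 in the knockout, against 4252 and 3506 in wild type. The knockout libraries thus held both the highest and the lowest value, and the log2 fold change was -0.06 (SE 0.36, edgeR adjusted p = 0.966). Small nucleolar RNA genes share 6.1% of its annotated exon bases.

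In CPM the HSP70 helpers followed the order of Hspa8. Hsph1, the HSP110 protein that exchanges nucleotide on HSP70 and holds unfolded chains, had 214 and 108 CPM in the knockout, against 200 and 158 CPM in wild type (log2 fold change -0.15, SE 0.36). Dnajb1, an HSP40 that brings clients to HSP70 and helps to shut HSF1 off, had 123 and 79.1 CPM in the knockout, against 104 and 87.3 CPM in wild type (0.08, SE 0.25). For Hspa8, Hsph1 and Dnajb1 alike knockout replicate 1 was the highest library in CPM and knockout replicate 2 the lowest. In TPM this order did not hold for Hsph1, at 86.7 and 47.4 in the knockout, against 99.6 and 88.3 in wild type. That is a log2 fold change of -0.54 on the log2(TPM + 1) scale (limma-trend adjusted p = 0.919). The TPM of Hsph1 varied between lanes. Knockout replicate 1 was above wild type replicate 1 in lanes 1 and 2. It was below in lanes 3 and 4, the most in lane 4 (74.2 against 124 TPM). In CPM the 3 genes were at most 1.19-fold higher in knockout replicate 1 than in wild type replicate 1.

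The cytosolic HSP90 genes differed little between libraries. Hsp90aa1, the inducible form, had 1688 and 1479 CPM in the knockout, against 1714 and 2071 CPM in wild type, so both knockout libraries were below both wild type libraries, by little in replicate 1. Its log2 fold change was -0.26 (SE 0.18, edgeR adjusted p = 0.838). Hsp90ab1, the constitutive form, had 2904 and 2658 CPM in the knockout and 2868 and 3129 CPM in wild type (-0.11, SE 0.16), with the groups overlapping. Per transcript length Hsp90aa1 was above Hsp90ab1 in every library, at 1805 and 1835 against 1276 and 1268 TPM in the knockout and at 2087 and 2495 against 1396 and 1457 TPM in wild type.

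Hspd1 and Hspe1 encode HSP60 and HSP10, which together form the folding chamber of the mitochondrial matrix. Hspd1 had 596 and 704 CPM in the knockout, against 709 and 1039 CPM in wild type. Both knockout libraries were the lower ones, although knockout replicate 2 and wild type replicate 1 nearly met. The log2 fold change was -0.43 (SE 0.24, edgeR adjusted p = 0.838). Hspe1 had 128 and 125 CPM in the knockout, against 129 and 195 CPM in wild type, a log2 fold change of -0.36 (SE 0.23, adjusted p = 0.838), and only wild type replicate 2 stood apart. The heads of these genes overlap on opposite strands over 4.2% of the exon bases of Hspd1 and 7.6% of those of Hspe1. The annotation also names 5 pseudogenes of Hspd1 and 6 of Hspe1, so some reads may be placed uncertainly. All 8 erythroid markers were, as Hspd1 was, lower in the knockout than in the wild type library of the same number. They were also, as Hspd1 was, higher in replicate 2 than in replicate 1 of either genotype. Their sum was higher in knockout replicate 2 than in wild type replicate 1 (2808 against 2037 CPM), whereas Hspd1 was slightly lower. Hspe1 was not higher in replicate 2 of the knockout. The part of the erythroid cells in the values of Hspd1 and Hspe1 was not tested.

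Hsf1, the regulator, also differed little. It had 66.6 and 62.2 CPM in the knockout, against 71.2 and 61.2 CPM in wild type, with means of 64.4 ± 3.13 and 66.2 ± 7.02 CPM (SD, n = 2 each). The log2 fold change was -0.04 (SE 0.13, edgeR adjusted p = 0.939), and the groups overlapped.

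**Figure D3:**
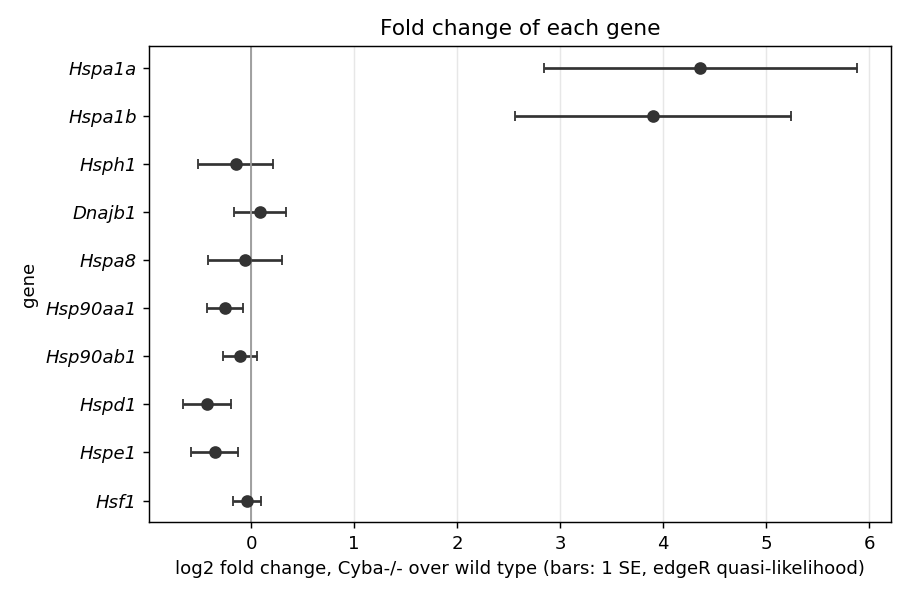
Log2 fold change of each gene, Cyba-/- over wild type, with bars of 1 SE from edgeR's quasi-likelihood test over 2 libraries per genotype. Hspa1a at 4.36 and Hspa1b at 3.90 have the widest bars, and the other 8 genes lie between -0.43 and 0.08.

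Per transcript length the inducible pair changed its rank in 1 library. In knockout replicate 1 Hspa1b stood at 149 TPM and Hspa1a at 107 TPM, above Hsph1 at 86.7 TPM and Dnajb1 at 34.4 TPM. In knockout replicate 2 Hspa1b was at 11.1 TPM and Hspa1a at 5.74 TPM, below Dnajb1 at 25.5 TPM. In wild type Hspa1b was at 5.51 and 6.29 TPM and Hspa1a at 3.62 and 2.41 TPM, against 31.6 and 27.3 TPM for Dnajb1. Wild type Hspa1a is again given at the reading used.

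Set against the wild type library of the same number, the replicates gave different pictures. In replicate 1 the knockout was above wild type for 6 of the 10 genes, with a median log2 ratio of 0.06 (all genes: 0.0026). In replicate 2 it was above for 3 and below for 7, with a median of -0.34 (all genes: -0.011). Hspa1a and Hspa1b were above in both, by 5.03 and 4.90 on the log2 scale in replicate 1 and by 1.19 and 0.77 in replicate 2. Hsp90aa1, Hspd1 and Hspe1 were below in both. Their log2 ratios were -0.02, -0.25 and -0.01 in replicate 1 and -0.49, -0.56 and -0.64 in replicate 2. Of 13578 genes, 4841 were above in both replicates and 4937 below in both, so such agreement was common. Hsph1, Dnajb1 and Hspa8 took opposite signs, at 0.10, 0.25 and 0.19 in replicate 1 and -0.54, -0.14 and -0.45 in replicate 2.

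**Figure D4:**
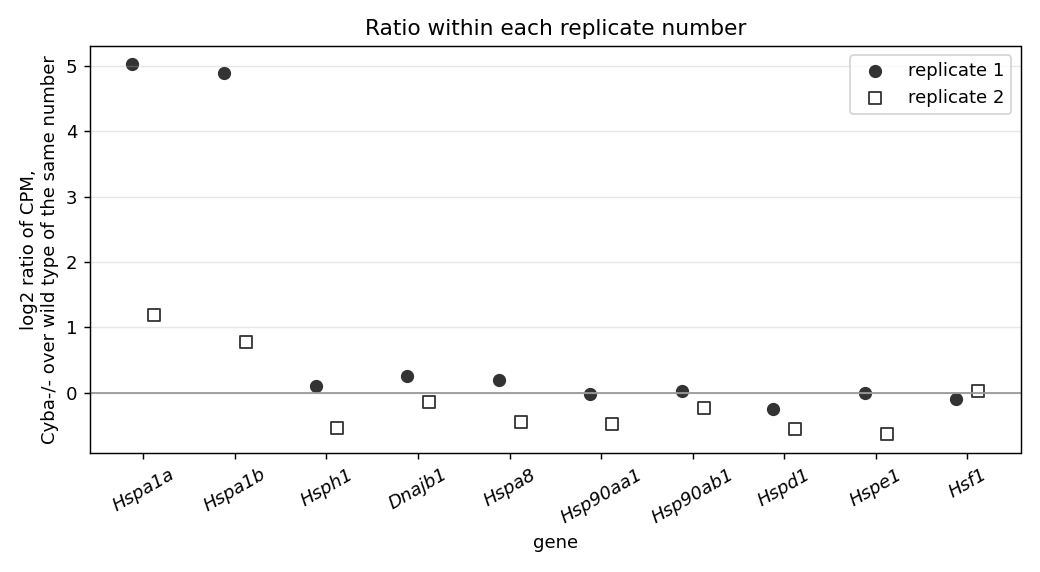
Log2 ratio of CPM of each gene, Cyba-/- over the wild type library of the same replicate number, with filled circles for replicate 1 and open squares for replicate 2. Apart from Hspa1a and Hspa1b, the ratios lie between -0.64 and 0.25, and replicate 2 is below 0 for 7 of the 10 genes.

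Libraries of the same number also shared features across the genotypes. Of the 10 genes, 5 (Hspa1a, Hsph1, Dnajb1, Hspa8 and Hsf1) were higher in replicate 1 than in replicate 2 in both genotypes, as were 38.4% of all genes. Hspd1 alone was higher in replicate 2 in both, as were 37.6% of all genes. Immediate early genes, which are switched on within minutes of a stimulus or of handling, were higher in replicate 1 of both genotypes for 20 of 20. They summed to 6133 and 1849 CPM in knockout replicates 1 and 2 and to 6126 and 1997 CPM in wild type replicates 1 and 2. Fos, one part of the AP-1 factor, had 1494 and 450 CPM in the knockout and 1473 and 518 CPM in wild type. Its partner Jun had 1121 and 268 CPM in the knockout and 1020 and 355 CPM in wild type. Egr1 had 204 and 21.9 CPM in the knockout and 194 and 43.5 CPM in wild type, and the stress factor Atf3 17.3 and 2.26 CPM in the knockout and 20.3 and 2.05 CPM in wild type. Knockout replicate 1 and wild type replicate 1 thus had nearly equal immediate early sums, while their summed Hspa1a and Hspa1b levels were 885 and 28.6 CPM. The part of the immediate early difference in the chaperone values was not tested.

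**Figure D5:**
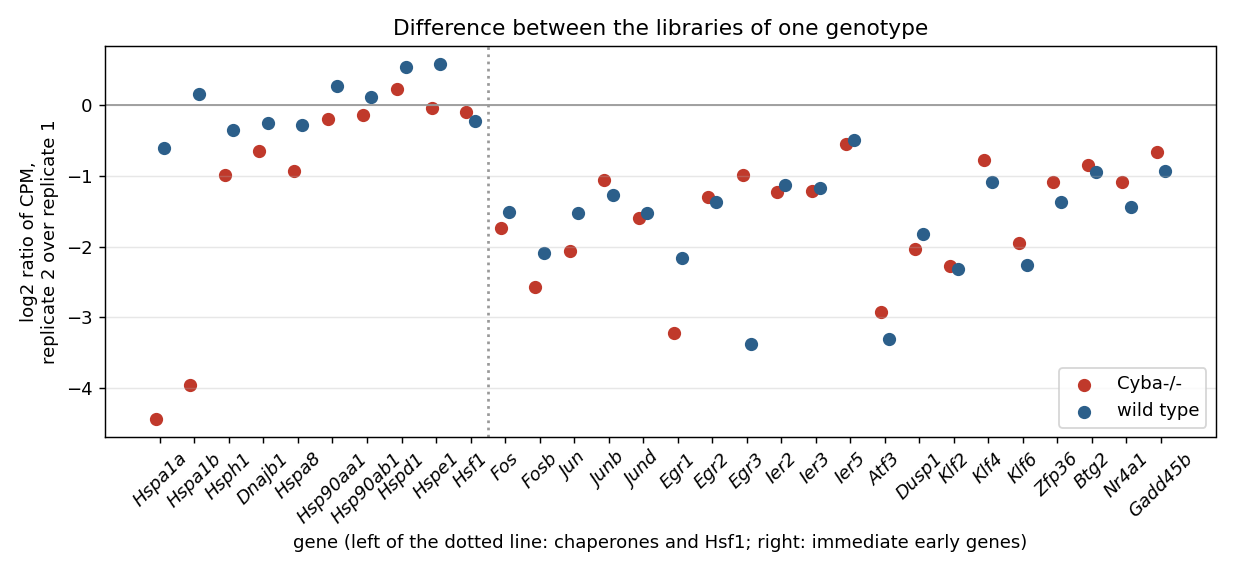
Log2 ratio of CPM, replicate 2 over replicate 1, within Cyba-/- (red) and within wild type (blue), for the 10 heat shock genes left of the dotted line and 20 immediate early genes right of it. All 20 immediate early genes lie below 0 in both genotypes, and Hspa1a and Hspa1b lie at -4.44 and -3.97 in Cyba-/- and at -0.61 and 0.16 in wild type.

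The partners of these chaperones were counted in 5 further lists of 57 genes, of which 54 were tested. None passed by edgeR's quasi-likelihood test or by DESeq2, and none had an unadjusted edgeR p under 0.05. In fold change 14 were higher and 40 lower in the knockout, with a median of -0.15 (15 or fewer higher without knockout replicate 1, wild type replicate 1 or wild type replicate 2, and 21 of 55 without knockout replicate 2). Both knockout libraries lay below both wild type libraries for 19 (all genes: 16.1%) and above them for 2 (all genes: 17.6%).

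Among 21 HSP70 partners 7 were higher and 14 lower, with a median of -0.07. Hspa4, an HSP110 relative of Hsph1, had 357 and 358 CPM in the knockout, against 411 and 433 CPM in wild type (log2 fold change -0.24, SE 0.12), and Bag2, an inhibitor of the ligase that tags HSP70 clients, had -0.58 (SE 0.29). Hspa2, an HSP70 best known from sperm cells, had 0.43 (SE 0.36), and Hspa13, a microsomal HSP70, 0.30 (SE 0.33). A few genes outside the naming rule were looked up after their values had been seen. The HSF1 target Bag3 had 19.7 and 18.0 CPM in the knockout, against 17.6 and 19.2 CPM in wild type. Dnaja1, an HSP40 like Dnajb1, had 319 and 184 CPM in the knockout, against 268 and 213 CPM in wild type. The HSP90-binding Chordc1 had 130 and 88.2 CPM in the knockout, against 111 and 97.9 CPM in wild type. Their log2 fold changes lay between 0.03 and 0.07. Knockout replicate 1 was above wild type replicate 1 for these 3, as for 11 of the 21 HSP70 partners. The same held for 7 of the 11 HSP90 partners and for 6842 of 13578 genes overall tested. As the 3 were picked with their values known, they do not stand for their lists.

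Among 11 HSP90 partners 4 were higher and 7 lower, with a median of -0.07. Without knockout replicate 1 all 11 were lower (median -0.18), without wild type replicate 2 10 were, and without knockout replicate 2 7 were higher (median 0.06). The prolyl isomerase Ppid had -0.22 (SE 0.13) and the kinase-loading factor Cdc37 -0.13 (SE 0.12). The glucocorticoid-induced Fkbp5 had 0.22 (SE 0.35). Of these 11 genes 9 were higher in replicate 1 than in replicate 2 in both genotypes.

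In the mitochondrial and TRiC lists every tested gene had a negative log2 fold change, under each of the 4 scalings run, and none passed the test. The 10 mitochondrial folding genes had a median of -0.23. The smallest p-values in that list were those of the mitochondrial HSP70 Hspa9 (432 and 496 CPM in the knockout, against 511 and 667 CPM in wild type; -0.34, SE 0.19) and of the disaggregase Clpb (-0.23, SE 0.13). Of the TRiC ring, which folds actin and tubulin, 7 of 8 subunits were tested, with a median of -0.24. With each library left out in turn, all 7 TRiC genes were negative in every fit. So were 7 of the 10 mitochondrial genes, all but Grpel1, Grpel2 and Htra2. These fits share libraries, and the same count over all genes is not given here. The TRiC medians in these fits ran from -0.37 to -0.08. Below the wild type library of the same number in both replicates were 7 of the 7 TRiC and 8 of the 10 mitochondrial genes. Among all genes 4937 of 13578 were. Both knockout libraries were below both wild type libraries for 5 of the 7 TRiC and 4 of the 10 mitochondrial genes (all genes: 16.1%). Cct8 had 420 and 475 CPM in the knockout, against 480 and 608 CPM in wild type (-0.28, SE 0.17), and Cct4 had -0.25 (SE 0.14). As with Hspd1, wild type replicate 2 was the highest library in each of Hspa9 and Cct8, and it had the highest erythroid marker sum. Knockout replicate 2 was above wild type replicate 1 in that sum, but slightly below it in Hspa9 and Cct8. The part of that cell type was not tested.

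Of 7 small heat shock and HSF-related genes 5 were tested, with 3 higher and 2 lower. The small heat shock gene Hspb6 had -0.30 (SE 0.33), the related factor Hsf2 0.15 (SE 0.23) and Hsbp1, which binds HSF1, 0.07 (SE 0.11). Hspb1 and Hspb8 were below the expression filter, Hspb1 with 16 reads and 1 read in the knockout, against 7 and 0 reads in wild type.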

How the data were processed

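RNA was sequenced from lineage-depleted marrow of 2 Cyba knockout and 2 wild type mice, with libraries made by the Illumina TruSeq kit per the labels' protocols. The authors deposited estimated counts (expected counts) and TPM per Ensembl gene and lane, 4 lanes per library per the file headers. Per the submitters' processing notes Salmon, DESeq2 and GRCm38 were used; versions and the strand setting are not given in the sources used here.

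In the deposited counts and TPM, numbers with 3 or more decimals and a whole part above 0 had lost the decimal point, which left 24.8% of count and 53.2% of TPM values with more than 1 reading. Readings were weighed jointly per gene from the agreement of lanes, the tie between count and TPM through gene length, and a loose tie between libraries (Python 3.11.15, numpy 2.4.6). Genes were used if no library sum had an expected error above 5% and above 1 read, which held for 21853 genes and left out 667. A small share may still be read wrongly. TPM values served to compare levels between genes and, in the limma-trend fits, to compare the genotypes.

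Lanes were summed and rounded. The main test was edgeR 4.0.16 (R 4.3.3), quasi-likelihood, two-sided, with TMM factors, the default filter by genotype and Benjamini-Hochberg adjustment over 13580 genes at 0.05. SE is the log2 fold change over the root of F. The SD is over 2 libraries and did not enter the tests. The p-values rest on 2 mice per genotype, with the variability of a gene estimated with the help of all genes. Repair and tests were run on simulated data in which a changed gene shifted alike in both knockout libraries. A rise in knockout replicate 1 only was not simulated. GENCODE vM21 (GRCm38) gave names for 22384 identifiers and the gene positions, and promoter windows came from RefSeq (GRCm38.p6). The 10 genes and all lists were chosen with earlier results of these data known. The rule for named genes took all 10, Cyba, 4 immediate early genes, and from each further list up to 2 genes per direction with the smallest p and a mean log2 CPM of at least 1. One gene this rule took is not reported here. As alternatives the results were recomputed with other scalings and filters, with DESeq2 1.42.0 and limma 3.58.1, with the replicate number as a block, without each library in turn, with repair without the tie between libraries, and with Hspa1a and Hspa1b summed. The other reading of Hspa1a was added after seeing the data.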

Additional observations from a re-analysis of the deposited data

How the results depend on the processing

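Under the other scalings, filters, tests, thresholds, repair and readings that were run, none of the 10 heat shock genes passed except without Cyba knockout replicate 2, where 2 did; leaving out 1 library gave 0 to 2. Over all genes edgeR's quasi-likelihood test called 0, with 434 at an unadjusted p under 0.05. The count was 32 by DESeq2, 27 by the edgeR likelihood ratio test, 1 by limma-trend on log2(TPM + 0.1) and 0 to 3 with 1 library left out. With the replicate number as a block edgeR called 1110 genes, 705 higher and 405 lower in the knockout, and none of the 10; the lowest adjusted p among them was 0.0781 for Hspa1a and 0.0798 for Hspd1. The numbers share no stated litter or day, and same-numbered libraries deviated together over 13580 genes (correlation 0.606). The median log2 fold change of the 10 genes was -0.205 by limma-trend with either pseudocount and -0.28 to 0.13 with 1 library left out; the cause was not tested. The direction turned only when 1 library was left out, for Dnajb1 (-0.26 to 0.37), Hsf1 (-0.14 to 0.078), Hspa8 (-0.59 to 0.32) and Hsph1 (-0.71 to 0.26). Hspa1a ran from 0.87 to 5.30 and Hspa1b from 0.86 to 4.81 in those fits, the lowest without knockout replicate 1. Adjusted p over all alternatives ranged from 0.0484 to 1.00 for Hspa1a and from 0.0420 to 1.00 for Hspa1b. Repair without the tie between libraries kept 9 of the 10 genes and left out Hspa1a. On log2(TPM + 1) limma-trend gave 2.77 for Hspa1a and 2.63 for Hspa1b. The fewest reads of the 10 genes in a library were 173, those of wild type Hspa1a at the reading used, and an effect of depth was not tested.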
